A study of Mus musculus with 9 samples.

Results

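Thyroid cells of mice given blocking antibodies against Notch1 and Notch2 (group aN1aN2) were compared with thyroid cells of mice given an antibody against ragweed, the control (group RW), 1 deposited cell label at a time. A label entered where at least 20 of its cells were present in at least 2 pools of each group. This left 9 of 16 labels and 5165 of the 6235 cells in these groups, out of 10186 cells in the series. The pools held 1107, 855 and 862 such cells in RW 1, 2 and 3, and 944, 784 and 613 in aN1aN2 1, 2 and 3. All mice were male C57BL/6, and the labels name no transgene. They were 10 to 12 weeks old by the design text and up to 14 weeks by the protocol. Each received a single intraperitoneal injection, of 40 mg/kg anti-ragweed, or of 5 mg/kg anti-Notch1 together with 10 mg/kg anti-Notch2, and was sampled on day 7. Thyroids of 6 mice were pooled per library, digested for 30 min at 42 °C and profiled by droplet RNA sequencing of transcript 3′ ends, so the pool is the replicate. A further group of 3 pools, blocked for the ligands Jagged1 and Jagged2, was used in the fits to estimate the spread and is not described. The aN1aN2 libraries have a sample-number range of their own, RW 1 and RW 2 share another and RW 3 has a further one, so the treatment and the number range cannot be told apart.

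Notch receptors are activated by Jagged and Delta-like ligands on a neighbouring cell. Cleavage then releases the intracellular part of the receptor, which enters the nucleus and, with the DNA-binding protein Rbpj, turns on genes such as those of the Hes and Hey families. In blood vessels Dll4 and Notch1 restrain sprouting and support arterial identity, and Notch3 acts in mural cells. Thyroid follicles are made of thyrocytes, which synthesise and secrete the large glycoprotein thyroglobulin, and each follicle is wrapped in a dense capillary net.

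The labels were checked against marker genes as summed CPM (a gene's UMIs scaled to a common total per label, in the usual CPM unit). The 8 endothelial markers summed to 19472 CPM in EC1, 7759 in EC2, 5422 in EC3 and 19639 in EC4 of RW, and to 15333, 7522, 7303 and 17617 CPM in aN1aN2. Thyrocyte markers reached 93650 and 103219 CPM in Th1, mostly from thyroglobulin, so this sum says little of the other thyrocyte markers. Fibroblast markers reached 41658 and 34927 CPM in F. Genes of other cell types were present too. EC3 held smooth muscle markers (3650 CPM in RW, 869 in aN1aN2), lymphatic markers (2550 and 956 CPM) and fibroblast markers (454 and 31.4 CPM). In EC2, smooth muscle markers stood at 1567 and 4032 CPM. Th3 held calcitonin cell markers at 49172 CPM in RW and 6840 CPM in aN1aN2, and skeletal muscle markers at 284 and 49985 CPM, so its name is used below only as a label. All these sums pool the libraries of a group. In Th3, aN1aN2 2 stood apart from aN1aN2 1 and aN1aN2 3, at a chi-square per degree of freedom of 27.2 and 20 between gene counts. Between aN1aN2 1 and aN1aN2 3 it was 2.34. Thyroglobulin (Tg) had a mean of 79700 and 77700 CPM in Th3 against 90800 and 103000 CPM in Th1. Its Th3 level ran from 25800 to 113000 CPM over the aN1aN2 pools. In the endothelial labels and F the means of Tg were 416 to 2240 CPM. The highest of these, EC3 of RW, ran from 268 to 6000 CPM over its pools. Globin-led erythroid markers in F were at 248 CPM in RW and 16705 CPM in aN1aN2. In the test given below, 0 of the 4 globin genes tested in F passed, at log2 changes of 5.91 to 6.16. The sources used here do not give the labelling method, and a lower share of one cell type within a label cannot be told apart from less RNA per cell.

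Summed counts ran from 51365 UMIs (EC2, an aN1aN2 pool) to 5233988 UMIs (Th1, an RW pool). Median UMIs per cell were 3202 to 4149 in the RW libraries and 2098 to 2237 in the aN1aN2 libraries, and the median mitochondrial share was 5.33 to 6.65% and 3.42 to 4.52%. The gap in depth was wide in some labels, with medians per cell of 17624 UMIs in RW and 6499.5 in aN1aN2 in Th1 and of 7664.5 and 3153 in F. The mitochondrial share in EC4 was 11.28% in RW and 5.4% in aN1aN2. The part of depth and of this share in the changes below was not tested beyond the thinning. Any pair of libraries shared at most 2 cell barcodes. Th1 is the deepest label. EC2 had only RW 1 and RW 2 on the control side. Not enough cells were present to test Th2, SM, M, P, S, T1 or T2. M had 188 RW cells and 22 aN1aN2 cells.

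In each label, genes were tested with edgeR's quasi-likelihood test over the pools and called at a Benjamini-Hochberg adjusted p under 0.05 over all genes tested in that label. Values after ± beside a log2 change are standard errors, with 3 pools per group except for the 2 RW pools of EC2. Th1 had 3677 called genes of 10627 tested (34.6%), 1834 of them higher and 1843 lower in aN1aN2. EC1 had 1712 of 9369 (18.3%), EC4 658 of 3101 (21.2%), F 954 of 4840 (19.7%), EC2 406 of 2508 (16.2%) and EC3 405 of 6476 (6.25%). Th3 had 121 of 2087 (5.8%), Eryth1 11 of 143 (7.69%, with 2.8% higher and 4.9% lower) and Eryth2 26 of 279 (9.32%, with 4.3% higher and 5.02% lower). These counts were lower at equal depth. Thinned to 51365 UMIs per pool and label, Th1 had 336 called genes, EC1 291, F 291, EC4 288, EC2 229, EC3 100 and Th3 59. Among all genes tested, the share called higher and the share called lower were 9.15 and 9.13% in EC1, 9.05 and 7.14% in EC2, 3.74 and 2.52% in EC3, 11 and 10.2% in EC4, 9.15 and 10.6% in F, 17.3 and 17.3% in Th1, and 2.92 and 2.87% in Th3. These shares stand beside most counts of the gene lists below, with many of the counts that moved by over 1.5 times when 1 pool was left out. A count given without such a remark is not thereby stable. The Th3 balance of 61 higher and 60 lower genes was not stable, with 5 and 24 without RW 1, 5 and 12 without RW 2, 4 and 18 without RW 3, and 33 and 72 without aN1aN2 1. EC2 fell to 258 calls without RW 1, EC3 to 252 without RW 1 and to 246 without aN1aN2 2, and Th3 to between 17 and 29 without RW 1, RW 2, RW 3 or aN1aN2 3. Leaving out genes whose Th1 level, scaled by the Tg ratio, exceeded 25% of their level in the label reduced the Th3 calls to 7. Eryth1 had 6 calls without aN1aN2 1, and Eryth2 had 10 without RW 1, 13 without aN1aN2 1 or aN1aN2 2 and 7 without aN1aN2 3.

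**Figure D1:**
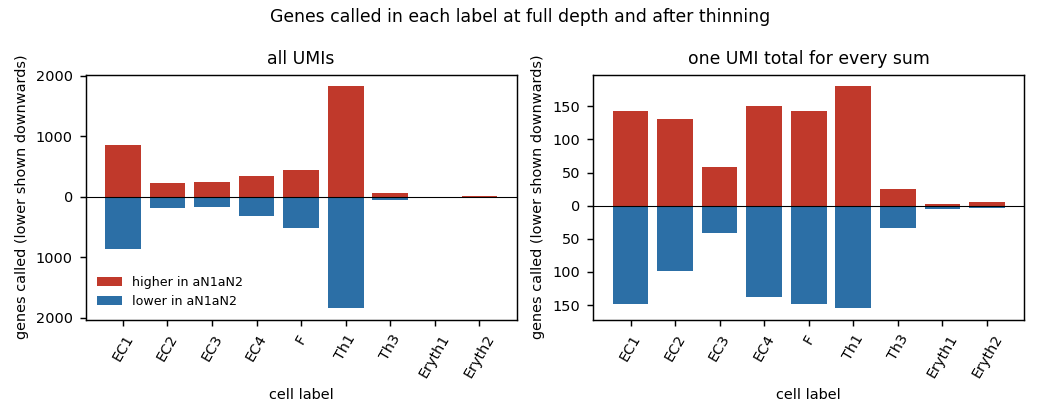
Number of genes called higher and lower in aN1aN2 than in RW in each tested label, with all UMIs and after thinning every pool to the same UMI total. Th1 stands far above the other labels with all UMIs (3677 genes) and close to EC1, EC4 and F after thinning (336 against 291, 288 and 291).

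Of the 4743 genes tested in at least 4 labels, 166 were called higher in at least 4 of them (3.5%) and 113 lower in at least 4 (2.38%). A further 1553 genes (32.7%) were called in exactly 1 label, 1047 of them in Th1, 214 in EC1 and 150 in F. The labels come from the same 6 pools, so calls in several labels are not independent of each other. Leaving out RW 1 reduced the 279 shared genes to 184, and leaving out aN1aN2 1 reduced them to 179. To ask whether a change differed between labels, 1 model was fitted to the 5 labels with the most genes (EC1, EC3, EC4, F and Th1), with the pool as a block. In it, 1006 of 2482 genes (40.5%) had a change that differed over the labels. The mean change over these labels was called for 1096 genes (44.2%), 511 of them higher (20.6%) and 585 lower (23.6%). Among those, 551 also differed in size between labels and 545 did not pass that test. Of the shared genes in this model, 89 of 125 higher and 65 of 94 lower genes differed in size, so most changes that were shared in direction were unequal.

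**Figure D2:**
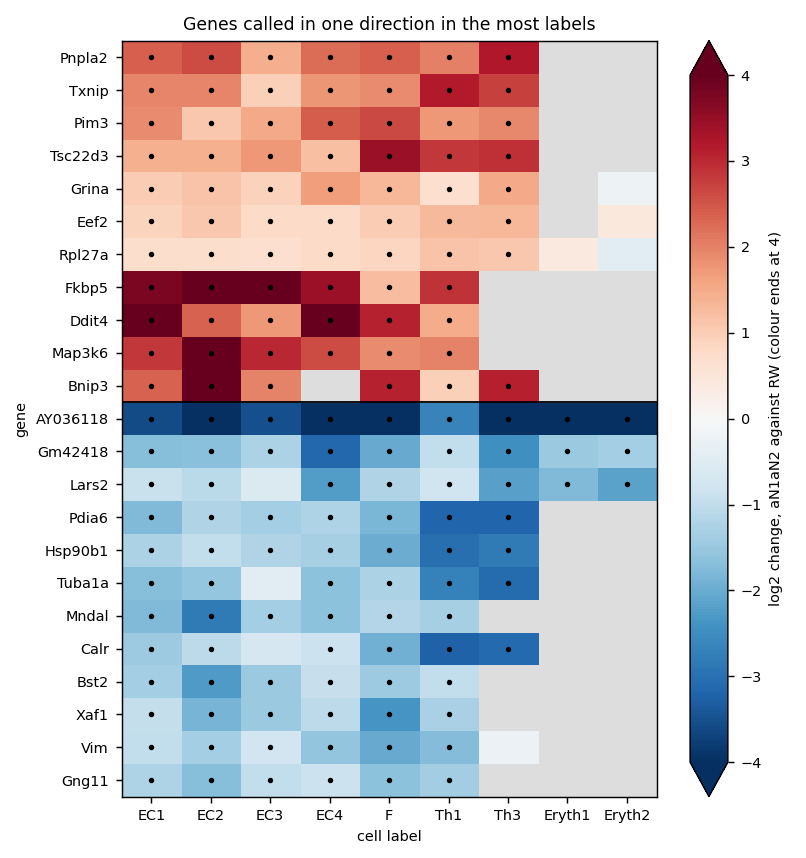
Log2 change, aN1aN2 against RW, of 11 higher and 12 lower genes among those called in the most labels, with labels in columns and mitochondrial genes left out. A dot marks an adjusted p under 0.05, grey marks a gene not tested in a label, and the colour scale ends at 4 in both directions. Each gene has the same sign in the labels where it is called, and the strength of the change varies between labels.

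Known targets of the glucocorticoid receptor, a steroid-activated transcription factor, were higher in several labels, and 12 of them are among the 166 shared higher genes. Of the 18 genes on this list, 13 of 16 tested were higher in EC1, against 9.15% of all genes tested there, with a median log2 change of 1.59 against -0.01 for all genes. The counts were 9 of 14 in EC2 (9.05% of all genes), 9 of 17 in EC3 (3.74%), 10 of 13 in EC4 (11%), 16 of 17 in F (9.15%), 12 of 17 in Th1 (17.3%) and 4 of 8 in Th3 (2.92%). Their medians were 1.82, 1.72, 1.21, 2.42, 1.85 and 2.17. The 4 Th3 calls, Tsc22d3, Glul, Klf9 and Pdk4, were each lost without any 1 of RW 1, RW 3 or aN1aN2 3 (adjusted p up to 0.18, 0.195, 0.287 and 0.228), and 2 of the 4 remained when genes with much Tg-scaled Th1 RNA were left out. One member was lower, Mt1 in Th1. Across labels, 12 of 16 members tested in at least 4 labels were higher in at least 4, and 10 of the 13 in the joint model differed in size between labels, against 40.5% of all genes in it.

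Tsc22d3 encodes GILZ, a leucine zipper protein induced by glucocorticoids. In F it was at 154, 249 and 323 CPM in RW 1, 2 and 3 and at 2750, 2810 and 2260 CPM in aN1aN2 1, 2 and 3 (log2 change 3.44 ± 0.22, adjusted p = 2.23e-11). In EC1 the values were 535, 607 and 444 CPM against 1440, 1490 and 1340 CPM (1.43 ± 0.16, adjusted p = 2.61e-06). No aN1aN2 pool overlapped an RW pool in either label. The change in F exceeded the mean of the other labels by 1.66 (adjusted p = 6.32e-05) and that in EC1 fell short of it (-0.86, adjusted p = 0.0226). Tsc22d3 was also higher in EC2 (1.42), EC3 (1.72), EC4 (1.21) and Th1 (2.84). The EC4 call was lost without RW 1 (adjusted p = 0.0508).

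Fkbp5, a cochaperone of the glucocorticoid receptor, had the reverse order. Its EC1 values were 26.6, 53.1 and 38.6 CPM in RW and 489, 563 and 544 CPM in aN1aN2 (3.76 ± 0.21, adjusted p = 1.22e-10). In F they were 69.2, 47.8 and 76 CPM against 164, 153 and 105 CPM (1.22 ± 0.28, adjusted p = 0.00258). The groups did not overlap in either label, and the F change was below the mean of the others (-2.31, adjusted p = 2.86e-07). Fkbp5 also rose in EC3 (4.31), EC4 (3.43) and Th1 (2.88). In EC2, where RW held 1 UMI, the CPM ratio was 88.3 with a 95% counting interval of 15.3 to 3540. Each of these calls held without any single pool.

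Other targets on the list were also uneven. Ddit4, an inhibitor of mTORC1, was at 8.83, 29.6 and 9.41 CPM in EC4 of RW and at 1080, 1110 and 1300 CPM in aN1aN2 (6.27 ± 0.36, adjusted p = 5.65e-17). This was 3.73 above the other labels (adjusted p = 0.000794), whereas in Th1 Ddit4 rose by 1.47, which is below them (-2.4, adjusted p = 9.63e-06). The Th1 call of Ddit4 was lost without RW 1, RW 2, RW 3 or aN1aN2 2 (adjusted p up to 0.102). Glul, glutamine synthetase, went from 26.6, 29 and 32.4 CPM to 222, 210 and 242 CPM in Th1 (2.93 ± 0.15, adjusted p = 5.43e-12), and its change there was 1.45 above the other labels. In EC1 Glul rose by 1.24 and in F by 2.42, while its EC4 value of 0.83 was not called. Mt1, a metal-binding protein, stood at 546, 583 and 584 CPM in F of RW and at 4940, 8450 and 4120 CPM in aN1aN2 (3.35 ± 0.32, adjusted p = 1.5e-05). In Th1 it fell by 0.28 (adjusted p = 0.0482), a call lost without RW 1, RW 2, aN1aN2 1 or aN1aN2 2 (adjusted p up to 0.23). Zbtb16, a zinc finger transcription factor, rose in EC3 (3.35), F (3.38) and Th1 (2.19). Klf9, a Krüppel-like factor, rose by 1.19 to 1.42 in EC1, EC4, F and Th1. Cdkn1a, a cell cycle inhibitor, rose in EC1 (2.75), EC2 (2.31), EC3 (2.63), EC4 (3.52), F (2.26) and Th1 (1.9).

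**Figure D3:**
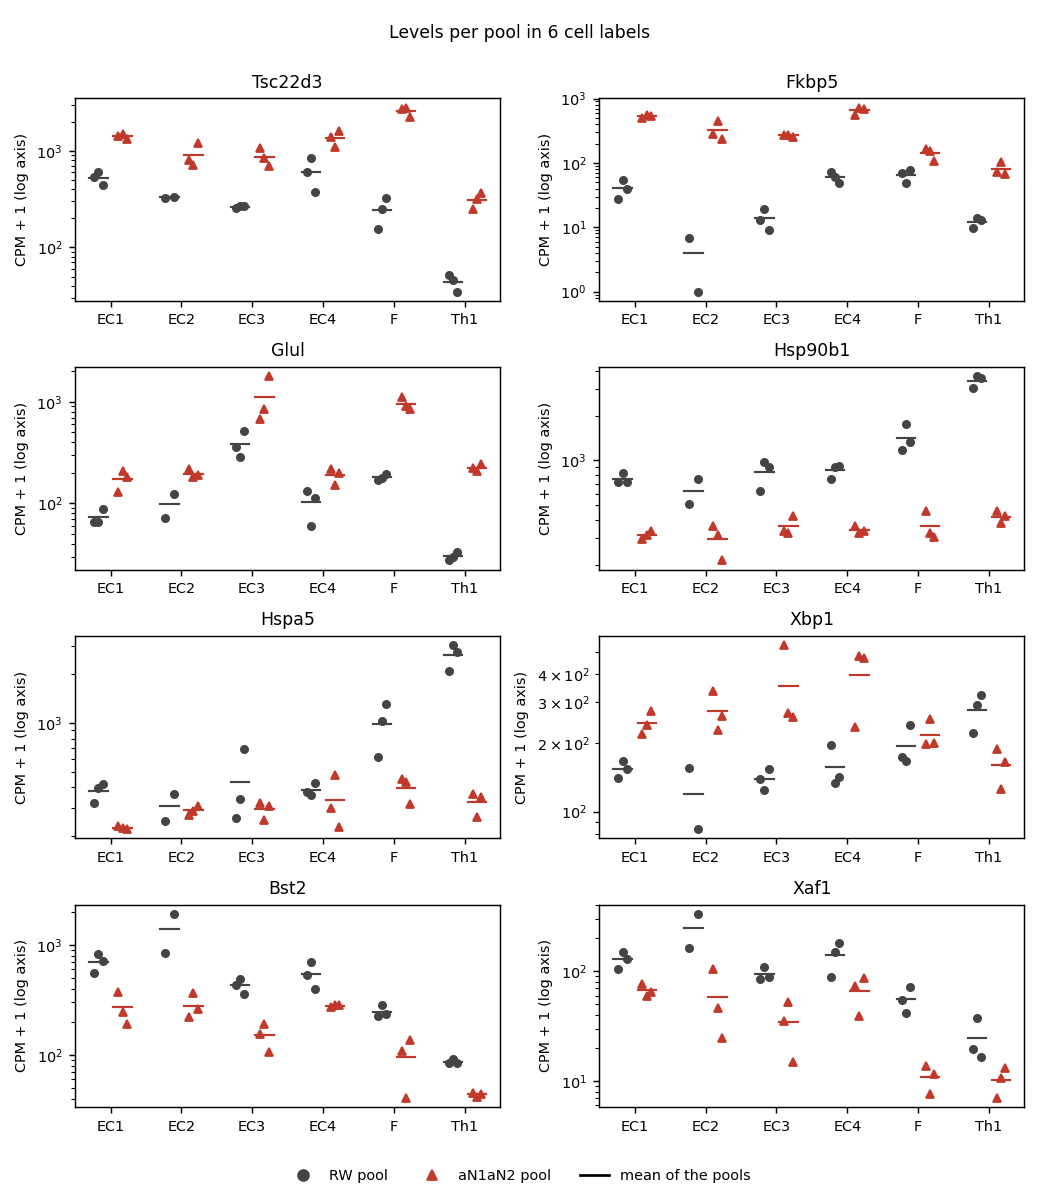
Level of 8 genes in every RW and aN1aN2 pool in EC1, EC2, EC3, EC4, F and Th1, as CPM plus 1 on a log axis, with a bar at each group mean. Tsc22d3 and Fkbp5 sit higher in aN1aN2, Glul does so most clearly in F and Th1, most pools of Hsp90b1, Bst2 and Xaf1 sit lower, and Hspa5 and Xbp1 separate in some labels and not in others.

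Some genes of fuel handling were higher in several labels. Pnpla2, the adipose triglyceride lipase, was at 70.5, 80.1 and 119 CPM in EC1 of RW and at 462, 510 and 474 CPM in aN1aN2 (2.4 ± 0.18, adjusted p = 2.19e-09). It was called higher in 7 labels with changes from 1.45 (EC3) to 3.2 (Th3). Its Th3 call was lost without RW 1 or RW 2 (adjusted p up to 0.0669). Txnip, which restrains glucose uptake, went from 369, 391 and 221 CPM to 2950, 2910 and 2970 CPM in Th1 (3.18 ± 0.34, adjusted p = 0.000521). That change was 1.56 above the other labels (adjusted p = 1.93e-10), and the EC3 change of 0.94 was below them (-1.25, adjusted p = 1.25e-06). Ucp2, a mitochondrial carrier, was at 338, 291 and 338 CPM in EC1 of RW and 2500, 2430 and 2560 CPM in aN1aN2 (2.95 ± 0.12, adjusted p = 2.76e-18). It rose in EC2 (3.82), EC3 (1.7), EC4 (2.79), Eryth2 (2.31) and, by less, in Th1 (0.78). The list of 18 fasting and fatty acid oxidation genes, which includes Ucp2, had 10 of 17 higher and 1 lower in Th1 (17.3% of all genes in each direction), and none lower elsewhere. This list overlaps with the glucocorticoid list, and the largest changes in F (3.95), Th1 (3.96) and Th3 (5.51) are the same in both. The counts of the 2 lists are therefore not separate. Higher members were 6 of 15 in EC1 (9.15% of all genes), 6 of 12 in F (9.15%), 3 of 8 in EC2 (9.05%), 3 of 13 in EC3 (3.74%), 2 of 7 in EC4 (11%) and 4 of 11 in Th3 (2.92%). The Th3 count was 1 without RW 2 or RW 3 and 2 without aN1aN2 3, and 1 without the Tg-scaled genes. List medians were 0.38 in EC1, 0.92 in EC2, 0.38 in EC3, 0.13 in EC4, 1.29 in F, 0.59 in Th1 and 1.43 in Th3. Of 15 members tested in at least 4 labels, 5 were higher in at least 4, and of the 5 in the joint model 2 were higher in the mean, with a median of -0.1. Angptl4, a secreted inhibitor of lipoprotein lipase, had 1 UMI in EC1 of RW (0, 0 and 0.454 CPM) and stood at 50.3, 42.9 and 28.6 CPM in aN1aN2, a ratio of 209 with a 95% counting interval of 35.8 to 8440.

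Map3k6, Pim3, Bnip3 and Rpl27a also rose in several labels. Map3k6, a stress-activated kinase, was at 18, 33.1 and 27.3 CPM in EC1 of RW and at 151, 223 and 188 CPM in aN1aN2 (2.83 ± 0.21, adjusted p = 2.17e-12). It rose in EC2 (4.26), EC3 (3.01), EC4 (2.6), F (1.88) and Th1 (1.99), with a mean change of 2.22 ± 0.18 (adjusted p = 5.79e-09) and an adjusted p of 0.208 for a difference between labels. Rpl27a, a protein of the large ribosomal subunit, rose by 0.71 in EC1, 0.78 in EC4, 0.86 in F and 1.15 in Th1, and its count is uncertain because it has near-identical copies. Pim3, a survival kinase, rose by 1.08 (EC2) to 2.65 (F), and Bnip3, a mitophagy receptor, by 0.96 (Th1) to 3.98 (EC2). Pim3 was not called in EC2 without RW 1 (adjusted p = 0.125), and the Th3 calls of Pim3 and Bnip3 were lost without any 1 of RW 1, RW 2, RW 3 or aN1aN2 3, that of Pim3 also without aN1aN2 1 (adjusted p up to 0.209). Cytosolic ribosomal protein genes were higher for 73 of 82 in Th1 (17.3% of all genes), 34 of 81 in EC1 (9.15%), 30 of 80 in EC4 (11%), 12 of 81 in F (9.15%) and 4 of 78 in Th3 (2.92%). Only 1 of 80 was higher in EC2 and 1 of 81 in EC3, below the 9.05 and 3.74% of all genes there. The EC3 count was not stable, at 4 without RW 2 and 0 without any other 1 pool. The EC1 count was 17 to 22 without RW 1, RW 2, aN1aN2 1, aN1aN2 2 or aN1aN2 3, the EC4 count 18 without RW 1, the F count 4 to 6 without any 1 pool other than aN1aN2 2, and the Th3 count 0 without any 1 pool other than aN1aN2 2. Lower members numbered 3 in Th1, 2 in EC2 and 1 in each of EC1, EC3 and EC4. In the mean over labels 64 of 80 were higher (20.6% of all genes) and 2 lower (23.6%). A difference between labels was called for 18 of 80, below the 40.5% of all genes.

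Genes of the endoplasmic reticulum (ER) were lower in Th1, and for most of those in the joint model the size of the change differed between labels. When unfolded proteins build up in the ER, the factors Atf6 and Xbp1 bind ER stress elements in front of chaperone genes. The classical element, CCAAT and CCACG with any 9 bases between them, was searched on both strands in the 250 bases before the start of each gene (RefSeq, GRCm38.p6). It was found in 35 of 27025 genes (0.13%) and in 9 of the 24 matched members of the 28-gene ER chaperone list (37.5%). Those members are Calr, Canx, Creld2, Derl3, Dnajc3, Hsp90b1, Hspa5, Pdia6 and Syvn1. The stretches around the matches are shown for 4 of the chaperones whose levels follow, read along each gene's strand, with the element in capitals. A match is a description of the letters, not a shown site.
Hspa5, chr2:34772010-34772058, plus strand: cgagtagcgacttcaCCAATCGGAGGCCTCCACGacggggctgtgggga
Hsp90b1, chr10:86705518-86705671, minus strand: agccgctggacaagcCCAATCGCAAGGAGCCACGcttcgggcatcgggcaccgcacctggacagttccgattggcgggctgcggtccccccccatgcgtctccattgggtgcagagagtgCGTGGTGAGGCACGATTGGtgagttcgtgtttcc
Calr, chr8:84847060-84847108, minus strand: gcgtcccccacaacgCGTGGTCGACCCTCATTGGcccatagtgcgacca
Pdia6, chr12:17266476-17266524, plus strand: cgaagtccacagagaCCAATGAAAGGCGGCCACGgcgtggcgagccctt
Hspa5 and Pdia6 hold the element in its forward reading, Calr in its reverse reading, and Hsp90b1 holds 1 of each.

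In Th1, 25 of 28 ER chaperone and unfolded protein response genes were lower and none higher, against 17.3% of all genes lower, with a median log2 change of -1.29. Th3 had 12 of 22 lower (2.87% of all genes), F 11 of 26 (10.6%) and EC1 8 of 27 (9.13%). In F, 1 of 26 was higher (9.15% of all genes), and 2 without RW 3, aN1aN2 1 or aN1aN2 3. The Th3 count fell to 5 without RW 2 and to 7 without aN1aN2 3, and it was 0 when genes with much Tg-scaled Th1 RNA were left out. EC2 had 3 of 15 lower (7.14%), EC3 4 of 25 (2.52%) and EC4 5 of 18 (10.2%), while EC1, EC2, EC3 and EC4 also had 2, 2, 1 and 3 members higher, counts near the 9.15, 9.05, 3.74 and 11% of all genes called higher there. The EC2 count of lower genes was 1 without RW 1, RW 2 or aN1aN2 2, and that of EC3 was 1 without aN1aN2 1 and 2 without aN1aN2 2. Medians were -1.84 in Th3, -0.75 in F, -0.13 in EC1 and between -0.29 and 0.05 in the other endothelial labels. The size of the change differed between labels for 17 of the 18 list members in the joint model, against 40.5% of all genes in it. Of 28 genes for ER translocation and N-glycosylation, 23 were lower in Th1 (17.3% of all genes), 11 of 27 in F (10.6%) and 8 of 28 in EC1 (9.13%). Th3 had 6 of 27 lower (2.87%), EC2 1 of 20 (7.14%), EC4 1 of 26 (10.2%) and EC3 0 of 27 (2.52%). Higher members were 2 of 28 in EC1 (9.15%) and 2 of 26 in EC4 (11%), each falling to 1 without some single pools. The F count of lower genes was 7 without RW 2, aN1aN2 1 or aN1aN2 2. In Th3 it was 0 without RW 2, RW 3 or aN1aN2 3, 1 without RW 1, and 0 without the Tg-scaled genes. In the joint model 22 of 26 differed between labels (40.5% of all genes).

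Hsp90b1, the ER form of Hsp90, fell in EC1, EC2, EC3, EC4, F, Th1 and Th3. Its Th1 values were 3050, 3660 and 3560 CPM in RW and 458, 377 and 424 CPM in aN1aN2 (-3.03 ± 0.12, adjusted p = 3.82e-13). In EC1 it was at 717, 822 and 716 CPM against 295, 316 and 334 CPM (-1.26 ± 0.12, adjusted p = 6.96e-10). The groups did not overlap in either label, and the Th1 change was below that of the others (-1.6, adjusted p = 5.33e-14). Its EC2 call was lost without RW 2 (adjusted p = 0.101) and its Th3 call without RW 2 or aN1aN2 3 (adjusted p up to 0.0606). Th1 transcripts present as free RNA at the level that Tg marks would make up 1.38 to 11.1% of the Hsp90b1 level in the other tested labels apart from Th3. Calr, a lectin chaperone, went from 2500, 2550 and 2580 CPM to 285, 220 and 305 CPM in Th1 (-3.24 ± 0.24), below the other labels (-2.05, adjusted p = 1.23e-15). Pdia6, a disulfide isomerase, fell by 3.18 in Th1 and by 1.77 and 1.82 in EC1 and F.

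Hspa5 (BiP), the main Hsp70 of the ER, differed more between Th1 and the other labels than Hsp90b1, Calr or Pdia6 did. In Th1 it was at 2100, 3020 and 2750 CPM in RW and at 363, 261 and 347 CPM in aN1aN2 (-3.02 ± 0.17), and in F at 611, 1020 and 1300 CPM against 448, 431 and 314 CPM (-1.28). EC1 had 319, 393 and 417 CPM against 231, 223 and 220 CPM (-0.75 ± 0.14, adjusted p = 0.000108). The values in EC2 (-0.05), EC3 (-0.55) and EC4 (-0.2) were not called. The Th1 change was below the other labels (-2.36, adjusted p = 6.59e-09). Manf, a secreted ER stress factor, had a similar difference, with 811, 1260 and 1370 CPM against 166, 125 and 175 CPM in Th1 (-2.89) and a value of -0.04 in EC3.

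Xbp1 and Herpud1 moved in opposite directions in Th1 and EC4. Xbp1, itself a factor of the unfolded protein response, was at 219, 292 and 322 CPM in Th1 of RW and 187, 125 and 164 CPM in aN1aN2 (-0.81 ± 0.15, adjusted p = 0.000484). In EC1 it stood at 140, 165 and 152 CPM against 217, 239 and 274 CPM (0.67 ± 0.15, adjusted p = 0.00113). In EC4 the values were 194, 133 and 141 CPM against 234, 478 and 467 CPM (1.25), and EC3 was higher too (1.34). The pools did not overlap in any of these labels. Xbp1 in F was not called (0.2), and the Th1 change lay below the other labels (-1.66, adjusted p = 2.1e-07). Herpud1, a component of ER-associated degradation, had the same pattern, at 252, 347 and 227 CPM against 162, 137 and 179 CPM in Th1 (-0.78 ± 0.18) and 106, 133 and 113 CPM against 317, 251 and 324 CPM in EC4 (1.36). Its Th1 change differed from the others by -1.48 (adjusted p = 1.62e-09). Stt3b, a catalytic subunit of oligosaccharyltransferase, rose in EC1 (1.96) and EC4 (1.68) and had a value of -0.03 in Th1. P4hb, the protein disulfide isomerase that also forms part of collagen prolyl hydroxylase, fell in F by 1.91 from 342, 415 and 219 CPM to 107, 92.9 and 52.4 CPM, below the other labels (-1.45, adjusted p = 8.28e-05).

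**Figure D4:**
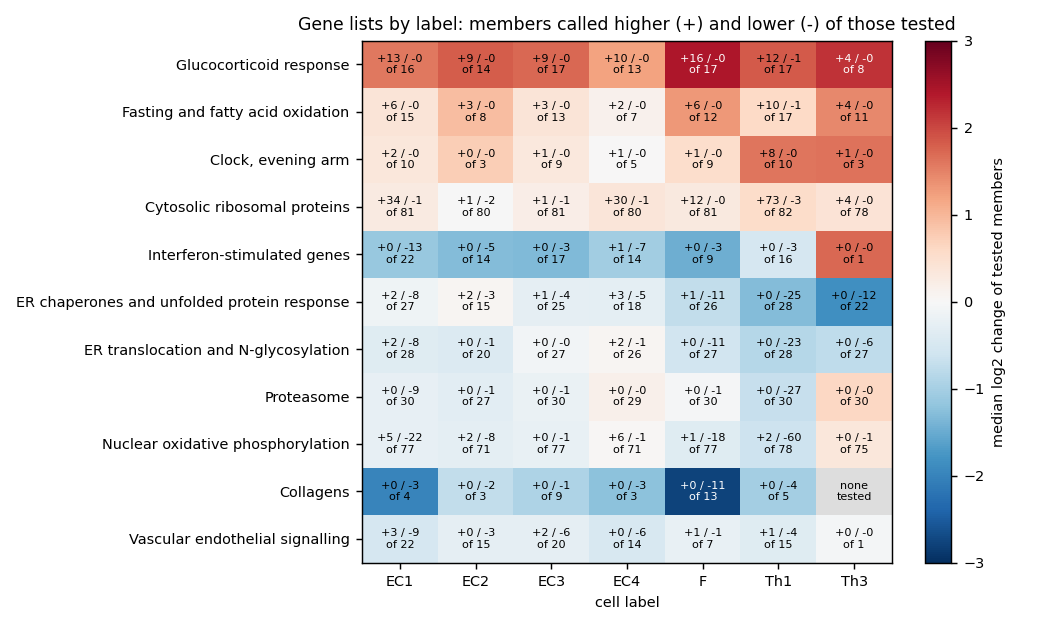
For 11 gene lists in rows and 7 labels in columns, the number of genes called higher (+) and lower (−) of those tested, with the median log2 change as colour. The glucocorticoid list holds higher genes in all 7 labels, the interferon list holds lower genes in the 6 apart from Th3, and the ER lists have their most numerous lower genes in Th1.

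Some interferon-stimulated genes were lower in the 4 endothelial labels, F and Th1, in Th1 at about the share of all genes there, and most of these counts moved with single pools. The interferon response element bound by ISGF3 and interferon regulatory factors has the core TTTC, any 2 bases and TTTC again, which was searched on both strands in the same windows. It occurred in 936 of 27025 genes (3.46%) and in 10 of 18 matched members of the 24-gene list (55.6%), Bst2, Gbp2, Gbp7, Ifit1, Ifit3, Igtp, Isg15, Oas1a, Rsad2 and Stat2. The ER stress element was in 0 of the 18, and the interferon core in 0 of the 24 ER genes. For comparison, the palindromic glucocorticoid element, GNACA and TGTNC with any 3 bases between them, was found in 119 genes (0.44%) and in 2 of 16 matched glucocorticoid list members, Mt1 and Sgk1. The interferon core was also in 2 of these 16 (12.5%), Glul and Sgk1. The stretches of Isg15 and Bst2 are shown because their values follow, with the core, in its reverse reading and in overlapping copies, in capitals.
Isg15, chr4:156200860-156200911, minus strand: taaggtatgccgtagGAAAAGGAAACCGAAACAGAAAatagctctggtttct
Bst2, chr8:71537572-71537617, minus strand: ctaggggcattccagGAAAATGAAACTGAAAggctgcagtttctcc
Isg15 holds 3 overlapping copies and Bst2 holds 2.

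Of the interferon list, 13 of 22 genes were lower in EC1 (9.13% of all genes), 5 of 14 in EC2 (7.14%), 3 of 17 in EC3 (2.52%), 7 of 14 in EC4 (10.2%) and 3 of 9 in F (10.6%). In Th1 the count was 3 of 16, near the 17.3% of all genes. Without aN1aN2 2 the counts were 8 in EC1, 2 in EC2 and 3 in EC4. The EC2 count was 3 without RW 2 or aN1aN2 3, and the EC4 count 4 without RW 2 or RW 3. The EC3 count was 1 without RW 2 or aN1aN2 1 and 6 without RW 1, and the Th1 count 1 without aN1aN2 1, which left Bst2. The medians were -1.13, -1.29, -1.33, -1.05, -1.46 and -0.5. One member was higher, the antiviral enzyme gene Rsad2 in EC4 (1.07), a call lost without RW 1 or aN1aN2 1 (adjusted p up to 0.0959). Of the 24 members, 6 were in the joint model, and none of these 6 had a change that differed between labels at an adjusted p under 0.05, so 18 were not tested for such a difference. Bst2, tetherin, which holds enveloped viruses at the cell surface, was at 845 and 1920 CPM in the RW pools of EC2 and at 219, 361 and 260 CPM in aN1aN2 (-2.27). Its Th1 values were 83.6, 91.1 and 83.5 CPM against 44.4, 40.6 and 43.5 CPM (-1 ± 0.16, adjusted p = 4.03e-05). In EC3 they were 433, 493 and 358 CPM against 155, 192 and 105 CPM (-1.5). The groups did not overlap, and the mean change over labels was -1.25 ± 0.11 (adjusted p = 3.6e-08), with an adjusted p of 0.533 for a difference between labels. In Th1, Bst2 stood at 12.3% of its EC1 level in RW and 15.9% in aN1aN2, where endothelial markers stood at 2.51 to 4.99% and 2.01 to 3.53%. The EC1 call of Bst2 (-1.35) was lost without RW 3 or aN1aN2 2 (adjusted p up to 0.0738) and its EC4 call (-0.92) without RW 2 (adjusted p = 0.0505).

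Isg15, a ubiquitin-like protein, was at 133, 188 and 198 CPM in EC1 of RW and 52.6, 59 and 85.9 CPM in aN1aN2 (-1.43 ± 0.2, adjusted p = 2.39e-06). Its mean change over labels was -1.74 ± 0.25 (adjusted p = 0.000125, and 0.975 for a difference between labels). Xaf1, a proapoptotic interferon target, was lower in EC1 (104, 150 and 129 CPM against 75.5, 59 and 63.7 CPM) and F (-2.37). Its EC2 call was lost without RW 2, aN1aN2 2 or aN1aN2 3, its EC3 call without RW 2, aN1aN2 1 or aN1aN2 3, its EC4 call without RW 2, RW 3, aN1aN2 1 or aN1aN2 2 and its Th1 call without aN1aN2 1 or aN1aN2 2 (adjusted p up to 0.117, 0.129, 0.289 and 0.15). The mean over labels was -1.29 ± 0.15. Mndal, a nuclear DNA sensor family member, fell by 1.78 in EC1 and 1.64 in EC4, with a mean of -1.5 ± 0.13 (adjusted p = 8.61e-09, and 0.705 for a difference). Macrophage markers summed to 153 CPM in EC1 of RW and 2.7 CPM in aN1aN2, where 3 of 6 were at 0. Their sums were 43.1 and 2.1 CPM in EC4, and 78.8 and 17.1 CPM in Th1. The part of macrophage RNA in these values was not tested.

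Several endothelial signalling genes fell in EC1 and EC4. Kdr, the main VEGF receptor, was at 2360, 2400 and 2030 CPM in EC1 of RW and 416, 410 and 401 CPM in aN1aN2 (-2.47 ± 0.11, adjusted p = 1.31e-17). EC4 had 3460, 3010 and 3470 CPM against 834, 653 and 819 CPM (-2.11), and EC2 fell by 2.06. The groups did not overlap. In EC3 Kdr fell by 1.04, a call lost without RW 1, RW 2, aN1aN2 1 or aN1aN2 2 (adjusted p up to 0.177). Its coreceptor Nrp1 went from 1990, 1980 and 2110 CPM to 535, 373 and 509 CPM in EC1 (-2.1 ± 0.12), and fell in EC4 (-2.03) and EC2 (-1.28). In F, Nrp1 was at 354, 201 and 366 CPM against 196, 239 and 304 CPM (-0.32, not called), 1.49 above the other labels (adjusted p = 0.000249). Esm1, a tip cell proteoglycan, was at 1600, 1610 and 2230 CPM in EC1 of RW and 217, 185 and 216 CPM in aN1aN2 (-3.14) and fell by 2.89 in EC4. Aplnr, the apelin receptor, fell by 2.09 in EC1 and 2.53 in EC4. On the list of 23 vascular signalling genes, 9 of 22 were lower in EC1 (9.13% of all genes), 6 of 14 in EC4 (10.2%), 6 of 20 in EC3 (2.52%), 3 of 15 in EC2 (7.14%) and 1 of 7 in F (10.6%). Higher members were 3 in EC1 (9.15% of all genes), 2 in EC3 (3.74%), 1 in F (9.15%) and 0 in EC2 and EC4. The F counts are near the shares of all genes. The EC3 count of lower genes was 1 without aN1aN2 1 and 2 without RW 1 or aN1aN2 2, and its higher count 0 without RW 2 or aN1aN2 2. The 3 higher in EC1 were Nr2f2, Ephb4 (0.47, lost without aN1aN2 1 at an adjusted p of 0.0699) and Pgf. Pgf, placental growth factor, a ligand of the VEGF family, was at 0.665, 0 and 0.909 CPM in EC1 of RW and at 20.6, 40.2 and 15.9 CPM in aN1aN2, a ratio of 43 with a 95% counting interval of 13.3 to 221.

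Th1 also showed Kdr and Nrp1 falling, by 2.24 and 2.33. There Kdr stood at 5.18% of its EC1 level in RW and 5.67% in aN1aN2, and Nrp1 at 3.49 and 2.86%. Endothelial markers in Th1 stood at 2.51 to 4.99% of EC1 in RW and at 2.01 to 3.53% in aN1aN2, and their part in these Th1 values was not tested. On the vascular list, 4 of 15 were lower and 1 higher in Th1 (17.3% of all genes in each direction), and 7 were lower without aN1aN2 2.

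Among arterial and Notch target genes, several fell in EC1. Hey1, a Notch target repressor, was at 19.3, 26.9 and 44.5 CPM in RW and 2.29, 2.68 and 6.37 CPM in aN1aN2 (-3.1 ± 0.59, adjusted p = 0.00027). Gja4, the arterial gap junction protein connexin 37, was at 57.2, 46.2 and 66.8 CPM against 4.57, 5.36 and 3.18 CPM (-3.66 ± 0.42, adjusted p = 3.96e-08). Efnb2, the arterial ephrin, went from 282, 266 and 238 CPM to 93.8, 118 and 115 CPM (-1.28) and also fell in EC4 (-1.44). Nr2f2, a venous identity factor, was higher, at 14.6, 20 and 21.4 CPM against 64, 51 and 44.6 CPM (1.51 ± 0.27, adjusted p = 8.7e-05). The groups were separate for each of these genes. In EC3, Gja4 (-0.83) was not called, and the falls of Hey1 (-1.51) and Efnb2 (-0.94) were lost without RW 1, aN1aN2 1 or aN1aN2 2, for Hey1 also without RW 2 (adjusted p up to 0.21 and 0.0946).

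Hes1, the classical Notch target, fell in EC1 from 211, 282 and 198 CPM to 112, 91.2 and 124 CPM (-1.07 ± 0.17, adjusted p = 1.34e-05). Its EC3 (-0.84) and EC4 (-0.73) values were not called, and the F call (-1.77) was lost without aN1aN2 2 or aN1aN2 3 (adjusted p up to 0.113). In Th1, Hes1 was at 160, 187 and 115 CPM in RW and 194, 198 and 198 CPM in aN1aN2 (0.37, not called), and this differed from the other labels by 1.47 (adjusted p = 0.000209). Of 17 Notch targets, 4 of 9 tested were lower and 1 higher in EC1 (9.13 and 9.15% of all genes), and 2 of 7 lower and 1 higher in EC3 (2.52 and 3.74%). Th1 had 3 of 11 lower and 2 higher (17.3% in each direction), and F 1 of 6 lower and 2 higher (10.6 and 9.15%). EC4 had 1 of 4 (10.2 and 11%) and EC2 1 of 5 (7.14 and 9.05%) in each direction. Lower members were 2 in EC1 without RW 1, aN1aN2 1 or aN1aN2 3, 1 in EC3 without RW 1, RW 2 or aN1aN2 1, and 1 in Th1 without aN1aN2 2. The higher counts in EC1 and Th1 are near the shares of all genes, and with 4 to 6 genes tested in EC2, EC4 and F 1 call is a large part of the list. Cdkn1a, described above as a glucocorticoid target, is on this list too, and is 1 of its 2 members called higher in any label. Myc, also a Notch target, was called higher in F and Th1 whichever pool was left out. Its log2 change was then 2.32 to 3.25 in F and 1.04 to 1.58 in Th1.

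Ccnd1, the cyclin D1 gene and a Notch and growth signal target, was low in aN1aN2 in several labels. In Th1 it was at 76.5, 91.8 and 88.9 CPM against 25.8, 27.9 and 16.9 CPM (-1.79 ± 0.17, adjusted p = 5.05e-08). In EC4 the values were 353, 222 and 273 CPM against 11.1, 7.59 and 0 CPM, a ratio of 40.6 lower with a 95% counting interval of 13.4 to 201. EC2 had 272 and 124 CPM against 0 in all 3 pools, at least 13.6-fold lower with 3 counts over the group as the floor. In EC1 the values of 230, 213 and 114 CPM against 6.86, 32.2 and 0 CPM did not pass the test (-3.77, adjusted p = 0.0534). Counting intervals and floors cover counting error only.

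Of 9 Notch receptor and ligand genes, 3 of 7 tested were higher in EC1 (9.15% of all genes), 1 of 8 was higher and 2 were lower in EC3 (3.74 and 2.52%), and 1 of 6 was higher in Th1, near the 17.3% of all genes. The EC1 count was 1 without aN1aN2 1. Notch1 was at 271, 300 and 248 CPM in EC1 of RW and 229, 249 and 283 CPM in aN1aN2 (-0.11, adjusted p = 0.625) and was called in no label. The antibodies act on the protein, so the transcript is no check of the block. Notch2 was higher in Th1 (0.96 ± 0.15, adjusted p = 3.78e-05) and in EC1 (1.62), the latter lost without aN1aN2 1 (adjusted p = 0.21). Notch4, an endothelial receptor (0.57), and the ligand Jag1 (0.85) were the other 2 higher in EC1, and these calls were lost without RW 1 or aN1aN2 2 (adjusted p up to 0.269) and without aN1aN2 1 (adjusted p = 0.121). Dll4, the arterial Notch ligand, fell in EC3 from 106, 97 and 93.5 CPM to 25.8, 19.2 and 14 CPM (-2.34 ± 0.39, adjusted p = 0.000692) and was not called in EC1 (-0.85, adjusted p = 0.0527). Notch3, the mural cell receptor, was at 168, 109 and 192 CPM in EC3 of RW and 0, 57.5 and 41.9 CPM in aN1aN2 (-2.11). That call was lost without aN1aN2 3 (adjusted p = 0.0801), and smooth muscle markers, of which Notch3 is one, moved with it in EC3, as given above.

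Collagen transcripts were lower in F. Col3a1 was at 11800, 10600 and 4870 CPM in F of RW and 492, 199 and 304 CPM in aN1aN2 (-4.77 ± 0.49, adjusted p = 0.00045). Col1a1 was at 6500, 6150 and 3460 CPM against 776, 391 and 231 CPM (-3.49 ± 0.46, adjusted p = 0.00161). The groups did not overlap, and RW 3 was the lowest control for both. Of 13 collagen genes tested in F, 11 were lower (10.6% of all genes) and 0 higher, with a median of -2.78. Col1a1, Col1a2 and Col3a1 are also among the 6 fibroblast markers, whose sum was 41658 CPM in RW and 34927 CPM in aN1aN2. As a pooled sum, erythroid markers were higher in F of aN1aN2, as given above, with 0 of 4 globin genes called. The part of erythroid RNA in the collagen values was not tested.

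Col15a1 and Col4a1, collagens of basement membranes, fell in several labels. Col15a1 was lower in EC1 (400, 328 and 219 CPM against 50.3, 37.5 and 28.6 CPM, -2.98), in F (823, 751 and 717 CPM against 75.7, 73 and 168 CPM, -2.94) and in EC4 (-3.06). Its EC3 value of 0.13 was 3.13 above the other labels (adjusted p = 0.0193). Col4a1, the main chain of type IV collagen, fell in EC4 from 3310, 2680 and 2450 CPM to 1150, 1260 and 1230 CPM (-1.22) and in EC1 from 1890, 1940 and 1310 CPM to 780, 931 and 729 CPM (-1.07). In F it was at 758, 837 and 708 CPM against 877, 882 and 786 CPM (0.15), a difference from the other labels of 1.05 (adjusted p = 0.000125). Both genes also fell in Th1, with a change of -3.14 for Col15a1, which stood there at 3.39% of its EC1 level in RW and 4.66% in aN1aN2. Of the collagen list, 3 of 4 were lower in EC1 (9.13% of all genes), 3 of 3 in EC4 (10.2%) and 4 of 5 in Th1 (17.3%). EC2 had 2 of 3 lower (7.14%) and EC3 1 of 9 (2.52%), with none higher in any label. The EC2 count was 1 without aN1aN2 1 or aN1aN2 3, and the EC3 count 0 without RW 1, aN1aN2 1 or aN1aN2 2 and 2 without RW 2.

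The largest rise particular to F among the named genes was in Igfbp3, an insulin-like growth factor binding protein. It was at 150, 123 and 128 CPM in RW and 1940, 2890 and 4500 CPM in aN1aN2 (4.53 ± 0.31, adjusted p = 4.44e-08). The change exceeded the other labels by 5.17 (adjusted p = 4.55e-08). In EC1, where Igfbp3 is abundant, it was at 5050, 4910 and 3740 CPM against 3840, 3960 and 3630 CPM (-0.26, not called). Tmem184b, a transmembrane protein gene, had 57.7, 50.3 and 33.3 CPM in F of RW and 6.31, 0 and 0 CPM in aN1aN2, a ratio of 19.6 lower (95% counting interval 3.33 to 791). Its F change lay below the other labels (-4.17, adjusted p = 0.000153). Svil, supervillin, an actin-binding protein, fell by 1.85 and Cdc42ep2, a Cdc42 effector, by 2.24 in F. Against the mean of the other labels, 310 of 2482 genes (12.5%) differed in F, with 5.4% above and 7.09% below, and 171 without aN1aN2 2.

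Some genes moved in opposite directions in different labels. Of 9346 genes tested in at least 2 labels, 209 (2.24%) were called higher in one label and lower in another, and 109 of these also differed in the joint model. Without aN1aN2 1 the count was 132, and without aN1aN2 2 it was 115. Gja1, connexin 43, fell in EC1 (285, 325 and 316 CPM against 137, 83.1 and 115 CPM, -1.46) and in EC4 (362, 385 and 386 CPM against 122, 106 and 124 CPM, -1.67). In F it rose, from 185, 183 and 109 CPM to 246, 451 and 398 CPM (1.16 ± 0.24, adjusted p = 0.00078). The pools were separate in these 3 labels and the F change differed from the others by 2.64 (adjusted p = 1.57e-05). S100a6, a calcium-binding protein, fell in F from 6280, 5350 and 6300 CPM to 2780, 2240 and 2620 CPM (-1.23 ± 0.16). In Th1 it rose from 194, 137 and 155 CPM to 347, 375 and 520 CPM (1.33). Ahnak, a large scaffold protein, rose in EC1 (559, 557 and 431 CPM against 839, 778 and 837 CPM, 0.67), EC2 (1.06) and EC3 (0.97) and fell in F (1030, 1290 and 1080 CPM against 568, 305 and 388 CPM, -1.43). Its F change was below the others (-1.87, adjusted p = 8.51e-13).

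**Figure D5:**
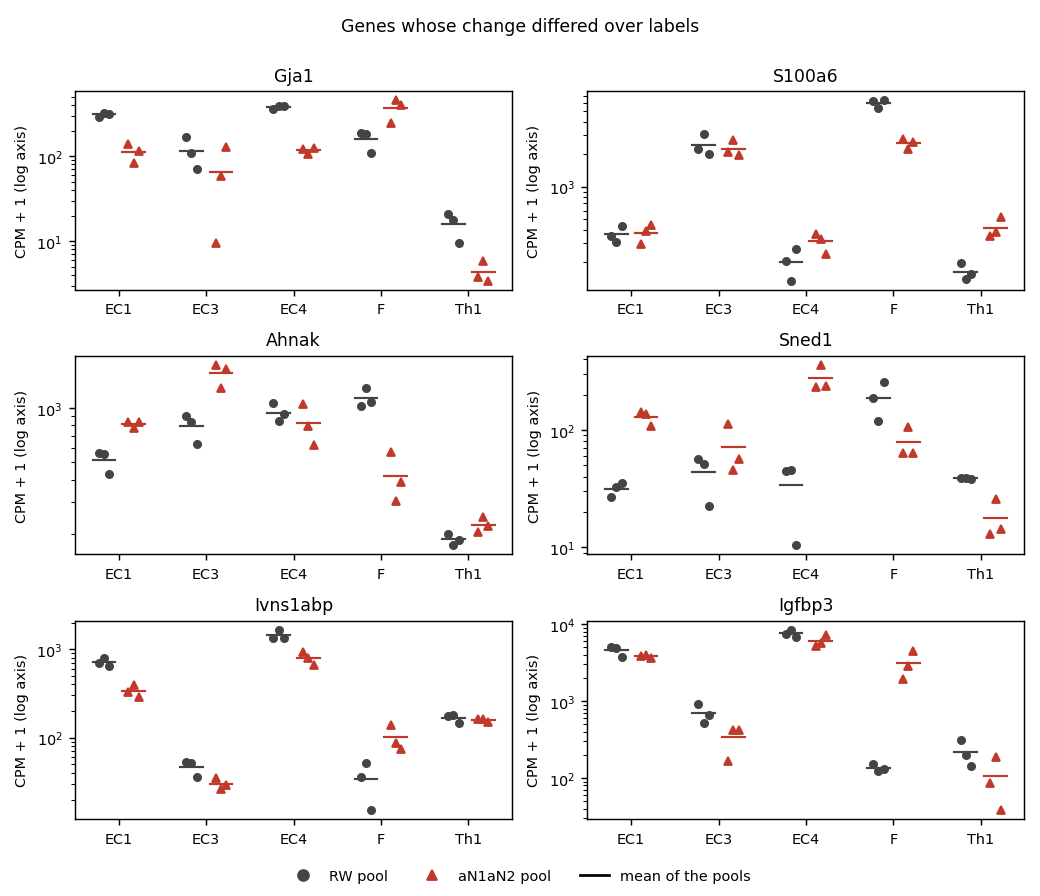
CPM per pool, on a log axis, of 6 genes with opposite or label-specific changes in EC1, EC3, EC4, F and Th1, with bars at the group means. Gja1 and Ivns1abp sit lower in aN1aN2 in EC1 and EC4 and higher in F, and S100a6 and Ahnak sit lower in F.

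Sned1, an extracellular matrix protein gene, rose in EC4 (44.1, 44.5 and 9.41 CPM against 234, 357 and 238 CPM, 3.09) and EC1 (2.08) and fell in Th1 (-1.13). Its fall in F (-1.2) was lost without aN1aN2 1 (adjusted p = 0.0696). Ivns1abp, a Kelch-family protein, fell in EC1 (-1.08) and EC4 (-0.85), and its rise in F (1.5) was lost without aN1aN2 1 (adjusted p = 0.126). Eln, the elastin gene, rose in EC1 (1.42), and its fall in F (-1.44) was lost without aN1aN2 2 (adjusted p = 0.0763). For each of these 3 genes the difference between F and the mean of the other labels passed the test, at -2.36, 2.19 and -2.5.

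Some changes were called in Th1 alone. Against the mean of the other labels 725 of 2482 genes (29.2%) differed in Th1, with 12.5% above and 16.7% below, and after thinning 91 genes differed. Cycs, cytochrome c, was at 325, 335 and 405 CPM in RW and 101, 96.9 and 104 CPM in aN1aN2 (-1.82 ± 0.14, adjusted p = 3.49e-09). Its change was below the other labels (-1.67, adjusted p = 1.05e-09), where values ran from -0.46 in EC4 to 0.63 in Th3. Ndrg1, a stress-responsive growth regulator, went from 48.1, 54.7 and 48.9 CPM to 177, 161 and 180 CPM (1.78 ± 0.13, adjusted p = 5.58e-10). That was 1.49 above the other labels (adjusted p = 1.65e-09). Dnajc3, an ER cochaperone, and Sec11c, a signal peptidase subunit, fell by 1.43 and 1.39 and were called in no other label. Klf10, a transcription factor, and Tspan4, a tetraspanin, rose by 1.61 and 1.64. On a list of 19 thyroid function genes, 9 of 15 tested in Th1 were lower and 2 higher (17.3% of all genes in each direction). Their median was -0.66, and the higher count was 0 without RW 1, RW 2, aN1aN2 1 or aN1aN2 2. Elsewhere, 3 of 7 were higher in EC1 (9.15%) and 1 of 11 lower in Th3 (2.87%), both 0 without the Tg-scaled genes.

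Nuclear genes of oxidative phosphorylation were lower for 60 of 78 and higher for 2 in Th1 (17.3% of all genes in each direction), with a median of -0.62. In EC1, 22 of 77 were lower (9.13% of all genes) and 5 higher (9.15%), and in F 18 of 77 were lower (10.6%) and 1 higher (9.15%). The higher count in EC1 was 3 without RW 1, RW 2 or aN1aN2 1. EC2 had 8 of 71 lower, not far from the 7.14% of all genes, and 2 higher. EC4 had 1 of 71 lower and 6 higher, both below the 10.2 and 11% of all genes, and EC3 and Th3 had 1 lower each and 0 higher. The lower counts were 13 in EC1 without aN1aN2 2, 2 in EC2 without RW 1, and 4 or 5 in EC2 without any 1 aN1aN2 pool, and the higher count in EC4 was 3 without aN1aN2 2. Of the 71 in the joint model, 41 differed between labels, where 40.5% of all genes did. Proteasome subunits were lower for 27 of 30 in Th1 (17.3% of all genes, median -0.69) and 9 of 30 in EC1 (9.13%), for 1 in each of EC2, EC3 and F and for 0 in EC4 and Th3, and 21 of 29 differed between labels (40.5% of all genes). The EC1 count of proteasome genes was 2 without aN1aN2 1. Tef, a clock output factor of the evening arm, was at 9.1, 11.5 and 23.6 CPM in Th1 of RW and 110, 105 and 115 CPM in aN1aN2 (2.81 ± 0.32, adjusted p = 0.000139), 2.3 above the other labels (adjusted p = 2.41e-05). Per3 rose in Th1 from 4.66, 8.77 and 14.4 CPM to 31.8, 38.8 and 43.5 CPM (1.96), and Per1, which is also a glucocorticoid target, rose in EC1 (1.22), EC4 (1.42) and Th1 (1.85). Of 11 evening-arm genes 8 of 10 were higher in Th1 (17.3% of all genes). Higher members elsewhere were 2 of 10 in EC1 (9.15%), 1 of 9 in EC3 (3.74%), 1 of 5 in EC4 (11%), 1 of 9 in F (9.15%), 1 of 3 in Th3 (2.92%) and 0 of 3 in EC2. The EC1 count was 4 without RW 3, and the F count 2 without RW 3 or aN1aN2 3. The Th3 member is Tef, whose call was lost without RW 1, RW 2, RW 3 or aN1aN2 3 (adjusted p up to 0.107). The EC3 count was 1 only with all pools or without RW 3 and 0 otherwise, and the F count 0 without aN1aN2 1 or aN1aN2 2, and the member in both is Per1 (adjusted p up to 0.127 and 0.113). Of the clock genes of the opposite arm, 1 of 5 was higher and 1 lower in Th1, near the 17.3% of all genes in each direction, 1 of 4 was higher in F (9.15%), and none was called of 4 in EC1, 2 in EC3 and 1 in EC4. The sources used here give no hour of day for the sampling of a pool.

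Each endothelial label was also compared with the mean of the other labels, which holds the 2 other endothelial labels. In EC1, 129 of 2482 genes (5.2%) differed from the mean of the other labels, 2.74% above and 2.46% below. In EC3 185 (7.45%) differed, 4.96% above and 2.5% below, and in EC4 159 (6.41%), 3.51% above and 2.9% below. Without aN1aN2 2 these counts were 77, 113 and 83, and EC4 had 95 without RW 1 and 73 without RW 3. With EC1, EC3, EC4, F and Th1 thinned to a common depth, 6 genes differed in EC1, 36 in EC3 and 31 in EC4, against 32 in F and 81 in Th1. Atp2b4, a plasma membrane calcium pump, rose in EC1 from 76.5, 75.4 and 86.8 CPM to 215, 241 and 236 CPM (1.52) and was called in no other label. Pmp22, a tetraspan membrane protein, rose in EC3 (152, 131 and 123 CPM against 215, 339 and 314 CPM, 1.1), 1.25 above the other labels (adjusted p = 3.17e-05). Hspb1, a small heat shock protein, rose in EC4 (582, 875 and 998 CPM against 1540, 1640 and 1680 CPM, 0.99), 0.75 above the others (adjusted p = 0.0203). In all 3 cases the pools did not overlap, which the rule that named these genes required.

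Vim, Tuba1a and Gng11 fell in several labels. Vim, vimentin, fell in F from 3150, 1930 and 2960 CPM to 757, 411 and 828 CPM (-2.02 ± 0.25, adjusted p = 2.13e-05) and fell in EC1 (-0.99), EC2 (-1.36), EC4 (-1.58) and Th1 (-1.75). Its EC3 call (-0.76) was lost without RW 1, RW 3, aN1aN2 1 or aN1aN2 2 (adjusted p up to 0.229). Tuba1a, an alpha tubulin, fell in EC1, EC2, EC4, F and Th1 with changes from -1.28 to -2.71. In EC3 its 339, 319 and 353 CPM against 241, 262 and 244 CPM were not called (-0.43), 1.42 above the other labels (adjusted p = 4.34e-06). Gng11, a G protein gamma subunit of endothelium, fell by 1.25 in EC1 and 1.7 in EC2, with a mean change of -1.24 ± 0.09 and no detected difference between labels (adjusted p = 0.738).

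With genes of the mitochondrial genome left out, the lower named genes called in the most labels were Gm42418, AY036118 and Lars2. Their counts are uncertain because these loci overlap or resemble ribosomal RNA sequence. Of 15 genes of the mitochondrial genome, 3 were lower and 1 higher in at least 4 labels. Among all genes tested in at least 4 labels these shares were 2.38 and 3.5%. In EC4, 6 of the 15 were lower (10.2% of all genes). Gm42418 was at 39800, 32300 and 43800 CPM in EC4 of RW and 4720, 3770 and 4540 CPM in aN1aN2 (-3.15 ± 0.16, adjusted p = 2.12e-18), below the other labels (-1.69, adjusted p = 0.000144). AY036118 varied among the controls, at 569, 876 and 176 CPM in EC1 of RW 1, 2 and 3 against 36.6, 34.9 and 66.8 CPM. Its calls in EC1, EC3 and Th1 were lost without RW 1, RW 2 or any 1 of the aN1aN2 pools, and its F call without any 1 of the aN1aN2 pools (adjusted p up to 0.156). The median UMIs per cell and the mitochondrial share, given above, moved with these transcripts between the groups, and their part was not tested.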

How the data were processed

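Droplet libraries of 9 thyroid pools were used, 3 each of RW and aN1aN2 for the comparison and 3 of the Jagged-blocked group to estimate the spread. The deposited matrix holds whole-number UMI counts per gene and cell (52636 genes, 10186 cells, 500 to 131347 UMIs per cell), with a label and pool for each cell in a deposited annotation table. The submitters' processing notes name Cell Ranger and GRCm38. Cell and doublet filters and the labelling method are not given in the sources used here, so no doublet call was added.

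Counts were summed per pool and label where a pool had at least 20 cells. Each label was fitted with edgeR 4.0.16 in R 4.3.3 (filterByExpr, TMM, robust quasi-likelihood, group means, no covariate). Labels with at least 3000 genes after filtering, here EC1, EC3, EC4, F and Th1, entered a joint edgeR fit of 44 sums with label and pool terms, which tested whether changes differed. Their mean was tested with limma 3.58.1 on log2 CPM (prior count 2). DESeq2 1.42.0 was an alternative. CPM values use TMM library sizes, and summed marker levels are plain CPM. Levels are compared within a gene. The label fits, the joint fit and the fit of the mean were tested on simulated counts for EC1, EC3, EC4, F and Th1. Replicate pools of a group differed beyond sampling noise in every label (chi-square per degree of freedom 1.39 to 27.2), so none was merged.

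Genes were named by a rule: the 12 higher and 12 lower genes called in the most labels (larger median change first, mitochondrial genes left out), up to 3 per direction called in 1 label and differing from the others, up to 8 with opposite calls, and members of the gene lists. Genes in the 1-label group needed non-overlapping pools, at least 20 CPM and a Tg-scaled Th1 level of at most 25% of their own. Comparisons, gene lists and the naming rule were chosen with earlier results of these data known. The named list members beyond the rule's counts were chosen after values were seen. Settings varied were normalization, filter, tool, depth, cell minimum, replicate block and each pool left out. One gene that the rule names is not reported here.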

Additional observations from a re-analysis of the deposited data

Results flagged for a closer look

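The changes below differed between labels in the joint edgeR model, each given as the log2 change in the label minus the mean change in the other modelled labels. The genes were picked because they differed, so the values describe them and lend no further support. In EC1 they were Atp2b4 (1.37), Herc1, a large ubiquitin ligase (1.13), Hexim1, an inhibitor of P-TEFb (0.98), Mgat1, an N-glycan branching enzyme (-0.8), Tbrg1 (-0.64) and Ech1, a peroxisomal and mitochondrial fatty acid enzyme (-0.65). EC3 had Nav1, a neuron navigator protein (1.33), Pmp22 (1.25), Triobp, an actin-binding protein (1.33), Lamc1, the laminin gamma 1 chain (-1.1), Ctcf, the insulator protein (-1.18) and Hnrnpc, an RNA-binding protein (-0.76). Of these, Nav1 lost its EC3 call without aN1aN2 3 (adjusted p = 0.133), Lamc1 without aN1aN2 2 (adjusted p = 0.0643), and Ctcf and Hnrnpc without any 1 of RW 1, RW 2, RW 3, aN1aN2 1 or aN1aN2 2 (adjusted p up to 0.276 and 0.278).

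EC4 had Angel2 (1.38), Hspb1 (0.75), Npc2, a lysosomal cholesterol carrier (0.94), Rif1, a replication timing and DNA repair factor (-1.98), Kat6a, a histone acetyltransferase (-1.59) and Ppp3cb, a calcineurin catalytic subunit (-1.71). Angel2 lost its EC4 call without any 1 of RW 1, RW 2, RW 3, aN1aN2 1 or aN1aN2 2, Rif1 without RW 2, RW 3 or aN1aN2 2, and Ppp3cb without RW 3, aN1aN2 1 or aN1aN2 2 (adjusted p up to 0.186, 0.115 and 0.0898).

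F had Igfbp3 (5.17), Cdc42ep1, a Cdc42 effector (1.64), Chchd7, a mitochondrial protein (1.61), Tmem184b (-4.17), Cdc42ep2 (-1.69) and Svil (-1.88). The 2 Cdc42 effector genes moved in opposite directions in F, by 1.85 for Cdc42ep1 and -2.24 for Cdc42ep2. Cdc42ep1 lost its call without RW 2, aN1aN2 1 or aN1aN2 2 (adjusted p up to 0.0867) and Chchd7 without aN1aN2 2 (adjusted p = 0.106). Th1 had Ndrg1 (1.49), Tspan4 (1.48), Klf10 (1.46), Cycs (-1.67), Dnajc3 (-1.22) and Sec11c (-1.04).

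Among genes called in opposite directions, the F change minus that of the other labels was -2.5 for Eln, -1.69 for S100a6, -2.36 for Sned1, 2.64 for Gja1, 2.19 for Ivns1abp and -1.87 for Ahnak. It was -2.39 for Ptgs1, cyclooxygenase 1, and -0.95 for Tsc22d1, a relative of Tsc22d3. The F call of Ptgs1 was lost without any 1 of RW 1, RW 2, aN1aN2 1, aN1aN2 2 or aN1aN2 3 (adjusted p up to 0.184), and that of Tsc22d1 without aN1aN2 2 (adjusted p = 0.0912).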

How the results depend on the processing

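No named change of a gene in a label reversed its sign under any setting run. The balance of higher and lower calls turned under at least 1 setting in every tested label except EC3. It went from 857 higher and 855 lower to 763 and 1025 without the expression filter in EC1, from 227 and 179 to 121 and 137 without RW 1 in EC2, from 342 and 316 to 143 and 171 in EC4 thinned with the other deep labels, and from 443 and 511 to 467 and 454 with the replicate block in F. In Th1 it went from 1834 and 1843 to 615 and 534 with a log2 change of at least 1, in Th3 from 61 and 60 to 5 and 24 without RW 1 and to 41 and 81 without the filter, in Eryth1 from 4 and 7 to 9 and 6 without aN1aN2 3, and in Eryth2 from 12 and 14 to 5 and 3 after thinning. Switching to DESeq2 size factors moved no count by over 1.5 times and kept 164 of the 166 shared higher and 112 of the 113 shared lower genes. With DESeq2, EC2 had 252 calls, EC3 256, EC4 410 and 128 genes had opposite calls, and 120 of the 166 and 71 of the 113 shared genes remained. Without the expression filter 1558 genes differed over the labels and the mean change was called for 2236, over more genes tested. Asking for at least 3 labels gave 618 shared genes, and for at least 5 labels 112. With at least 50 cells per pool, 6 labels could be fitted, with 29 calls in Th3, 23 shared and 102 opposite genes. Leaving out pairs where Tg-scaled Th1 RNA exceeded 25% of a level gave 7 calls in Th3 and kept 159 and 103 shared genes.

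Thinning lowered the count in each label. At 51365 UMIs there were 291 calls in EC1, 229 in EC2, 100 in EC3, 288 in EC4, 7 in Eryth1, 8 in Eryth2, 291 in F, 336 in Th1 and 59 in Th3, 72 shared and 26 opposite genes. In that setting 106 genes differed over the labels, 5 in EC1, 28 in EC3, 28 in EC4, 41 in F and 91 in Th1 against the others, and the mean was called for 200. Thinning only EC1, EC3, EC4, F and Th1, to 51753 UMIs, a setting chosen after seeing the data, gave 284, 115, 314, 263 and 322 calls. There, 118 genes differed, 6, 36, 31, 32 and 81 against the others, and the mean was called for 214. A log2 change of at least 1 as a further condition left 884 genes in EC1, 17 in Eryth2, 1149 in Th1, 142 shared, 48 opposite and 419 differing, with 36 in EC1, 85 in EC3, 78 in EC4, 186 in F and 134 in Th1 against the others and 129 in the mean.

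Leaving out each pool in turn gave 1254 to 1633 calls in EC1, 258 to 406 in EC2, 246 to 362 in EC3, 485 to 586 in EC4, 6 to 16 in Eryth1, 7 to 23 in Eryth2, 695 to 956 in F, 2771 to 3332 in Th1 and 17 to 124 in Th3. Shared genes numbered 179 to 236 and opposite genes 115 to 191. Between 746 and 961 genes differed over the labels, with 77 to 112 in EC1, 113 to 206 in EC3, 73 to 147 in EC4, 171 to 278 in F and 580 to 703 in Th1 against the others, and the mean was called for 1035 to 1156. With 1 RW pool left in EC2, that pool is assumed to vary like the other groups.

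The pool numbers 1 and 2 appear in the sample titles of both groups without a stated shared day or litter. The title of RW 3 holds no pool number. Deviations of same-numbered pools correlated at 0.024 and -0.013 in Th1 and 0 and 0.017 in EC1. In Th1, RW 1 correlated at 0.104 with aN1aN2 2 and at -0.098 with aN1aN2 3. These few values cannot show whether pools of the same number share a day or litter. With the number as a replicate block, Eryth2 had 0 calls by edgeR (54 at an unadjusted p under 0.05), Th3 had 46, and the other labels had 1716 (EC1), 334 (EC2), 299 (EC3), 532 (EC4), 9 (Eryth1), 921 (F) and 3503 (Th1). The block fit had 229 shared genes. For the counts above the cause was not tested beyond what fewer genes, cells, UMIs or pools set by construction.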

Other observations

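Sesn1 and Psmb10 changed in several labels. Sesn1, a stress-induced inhibitor of mTORC1 and p53 target, was at 35.2, 31.6 and 33.6 CPM in EC1 of RW and 167, 209 and 156 CPM in aN1aN2 (2.4 ± 0.19, adjusted p = 7.65e-12 by edgeR). It was at 79.4, 59.3 and 37.7 CPM against 245, 319 and 295 CPM in EC4 (2.24). In Th1, at 39.3, 34.4 and 49.1 CPM against 59.8, 61.8 and 59.2 CPM (0.53), the change was 1.17 below the other labels (-1.17, adjusted p = 0.000135). The groups did not overlap in these labels. Its calls in EC2 (2.92) and F (1.43) were lost without RW 1 (adjusted p = 0.106) and without RW 2 (adjusted p = 0.0529). On the list of 12 p53 targets, which includes Cdkn1a, 3 of 9 tested were higher in EC1 (9.15% of all genes), 3 of 4 in EC2 (9.05%), 1 of 8 in EC3 (3.74%), 2 of 3 in EC4 (11%), 3 of 7 in F (9.15%) and 4 of 11 in Th1 (17.3%), with 1 lower in F and in Th1. The EC2 count was 1 without RW 1.

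Psmb10, a catalytic subunit of the immunoproteasome, fell in EC1 from 255, 303 and 325 CPM to 162, 142 and 185 CPM (-0.86 ± 0.15, adjusted p = 4.36e-05 by edgeR). In Th1 it fell from 41.9, 44.5 and 45 CPM to 23.6, 20 and 24.2 CPM (-0.97 ± 0.18, adjusted p = 0.000237). The pools did not overlap in either label, and the mean over labels was -0.91 ± 0.13 (adjusted p = 2.38e-05), with an adjusted p of 0.406 for a difference between labels. Its calls in EC2, EC3 and F were lost without RW 2 or aN1aN2 3, and further without RW 1 or aN1aN2 1 in EC2, without RW 3, aN1aN2 1 or aN1aN2 2 in EC3 and without aN1aN2 2 in F (adjusted p up to 0.247). Of 13 class I antigen presentation genes, 4 of 13 were lower in EC1 (9.13% of all genes), 6 of 11 in EC2 (7.14%), 2 of 11 in EC3 (2.52%), 2 of 9 in F (10.6%) and 5 of 12 in Th1 (17.3%) with 1 higher there, while EC4 had 3 of 12 higher (11%) and 0 lower. The higher count in EC4 was 1 without aN1aN2 1, and the lower count in F 1 without RW 2 or aN1aN2 3. The EC2 count was 1 without RW 2 and 3 without aN1aN2 1, the EC3 count 0 without RW 2, aN1aN2 2 or aN1aN2 3, the F count 0 without aN1aN2 2, and the EC4 count 0 without RW 1 or aN1aN2 2.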
